A study of Homo sapiens with 4 samples.

Results

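The 10 genes described here, PIGV, PIGA, PIGB, PIGM, PIGO, PIGF, PIGK, PIGT, PIGS and GPAA1, encode enzymes and subunits that build the glycosylphosphatidylinositol (GPI) anchor and attach it to proteins. They were followed on Illumina bead arrays in U87, a long-established line of human glioblastoma cells. Every probe whose symbol in the platform annotation is one of the 10 was taken, which gave 15 of the 47318 probes on the array; the 10 genes are among 20045 with a probe of 1 symbol. The genes were chosen by the pathway of PIGV, and PIGV itself was selected on its low signal with the mimic on these same arrays, so the difference between the groups is given here as a description and not as a test. One group of 2 arrays came from U87 cells transfected with a synthetic piR-598 mimic, a copy of a PIWI-interacting RNA. The other 2 arrays came from U87 cells transfected with NC oligo, a commercial negative control that its maker sells for microRNA inhibitors. Both oligos were delivered with the RNAiMax reagent to 25 nM, and RNA was taken after 24 h. All arrays thus share the cell line, the reagent and the dose, and no untransfected cells were analysed here. The NC oligo belongs to another class of molecule than the mimic. The labels call the arrays biological duplicates without saying whether the cultures were separate passages, so errors given here measure only the spread between these samples.

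A GPI anchor is a glycolipid that holds many proteins on the outer face of the plasma membrane. It is assembled on the endoplasmic reticulum membrane: N-acetylglucosamine is added to phosphatidylinositol, mannoses are added from dolichol phosphate mannose, ethanolamine phosphates are attached, and a transamidase then joins the finished anchor to the protein. PIGA, the catalytic subunit of the first transfer, is known for the blood disease paroxysmal nocturnal haemoglobinuria, in which cells without it lose their GPI-anchored surface proteins.

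Mean deposited signal was 273.0 and 284.8 on the piR-598 mimic arrays and 305.8 and 300.0 on the NC oligo arrays. A detection p under 0.05 was reached by 19698 to 20324 probes on the mimic arrays and by 19627 to 20157 on the NC oligo arrays. After normalization the 2 mimic arrays differed from each other more than any other pair did, with an SD of the log2 difference over tested probes of 0.29, against 0.23 between the NC oligo arrays. The 5 mesenchymal glioblastoma markers measured, among them VIM, CD44 and TNC, were detected on all 4 arrays, while the astrocyte markers GFAP, AQP4 and S100B were detected on 0 of 4. The summed deposited signal of the mesenchymal markers was 24336 to 25827 on the mimic arrays and 27412 to 28436 on the NC oligo arrays; these sums are of signals before normalization, on arrays whose mean signal differed in the same direction. After normalization the log2 fold change, piR-598 mimic minus NC oligo, was -0.12 ± 0.14 (SE) for CD44, -0.05 ± 0.15 for VIM, 0.02 ± 0.15 for TNC, 0.06 ± 0.19 for CHI3L1 and 0.43 ± 0.21 for FN1. The leukocyte markers PTPRC and CD3E, the endothelial markers CDH5 and VWF and the epithelial markers CDH1 and KRT5 were detected on 0 of 4 arrays as well, and so was CDKN2A, known to be deleted in U87. SLC1A3, SNAP25 and CD68, single members of the astrocyte, neuron and leukocyte lists, were detected on all 4. The epithelial marker EPCAM was detected on 3 of 4 arrays, CDKN2B, the neighbour of CDKN2A in the same deletion, on 2 of 4 and the endothelial marker PECAM1 on 1 of 4, with deposited signals from 94.1 to 105 for these 3 genes.

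Of the 15 GPI probes, 14 passed the detection filter (detection p under 0.05 on at least 2 arrays) and at least 1 probe of each of the 10 genes was among them. With limma and Benjamini-Hochberg adjustment over all 20188 tested probes, 0 of the 14 had an adjusted p under 0.05, as did 0% of all tested probes. At an unadjusted p under 0.05 there was 1 member probe, that of PIGV, against 5.46% of all tested probes (2.84% with a lower value). PIGV was chosen for this difference, so nothing is read from these shares. A difference of at least 1.5-fold was also seen for PIGV alone among the 14, against 0.461% of all tested probes. The median log2 fold change, piR-598 mimic minus NC oligo, was 0.02 over the 14 probes and 7e-04 over all tested probes. The members thus lay on both sides of 0, with 9 positive and 5 negative values, where 49.8% of all tested probes were negative. The mimic arrays lay wholly below the NC oligo arrays for 3 probes and wholly above them for 3, or 6 of 14 in all, against 34.7% of all tested probes (17.6% below and 17.1% above). The 3 lower probes were those of PIGV and PIGK and 1 of PIGO, and the 3 higher ones were that of GPAA1 and 1 each of PIGO and PIGF.

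**Figure D1:**
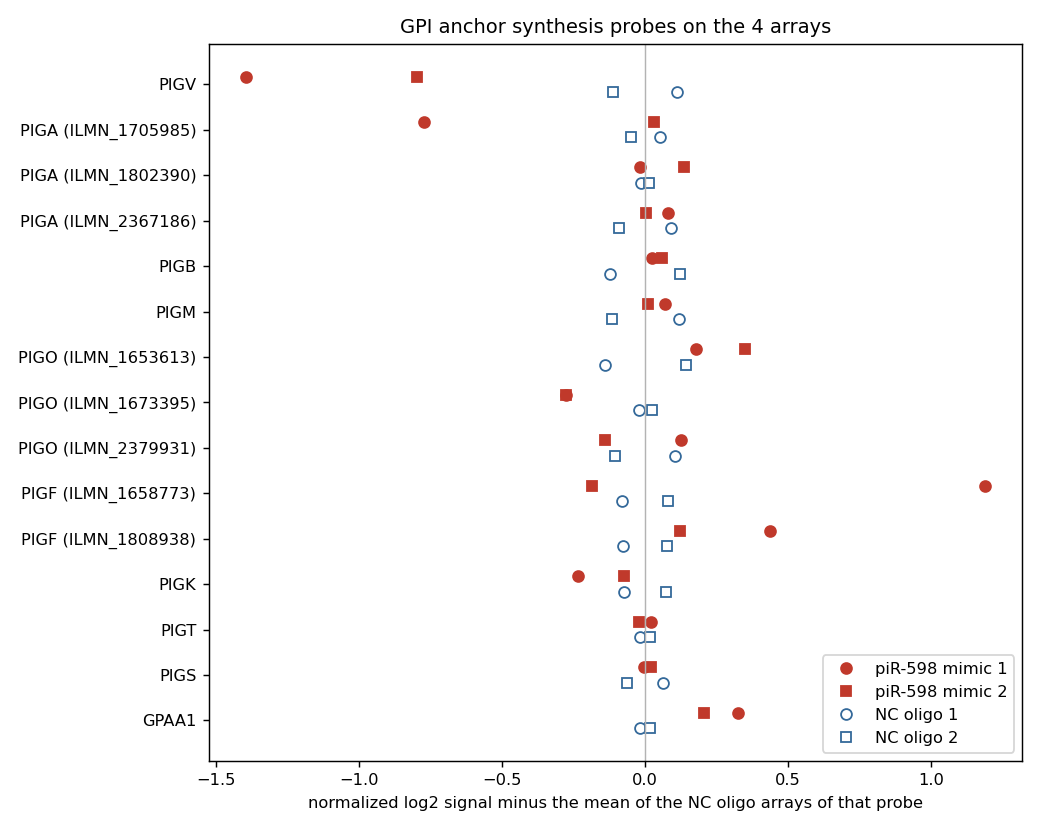
Normalized log2 signal of each of the 15 GPI anchor synthesis probes on each array, minus the mean of the NC oligo arrays for that probe, with filled red symbols for the piR-598 mimic arrays and open blue symbols for the NC oligo arrays (circle, replicate 1; square, replicate 2). Both mimic arrays sit below both NC oligo arrays for PIGV, while the brightest PIGA probe and the dimmer PIGF probe are set apart by mimic array 1 alone.

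PIGV, the mannosyltransferase that adds the second mannose to the growing anchor, had the lowest value of the set. Its single probe, ILMN_1762993, had a deposited signal of 101 and 119 on the piR-598 mimic arrays, against 166 and 151 on the NC oligo arrays. The groups did not overlap, and mimic array 1 was the lowest of the 4. The background of each array, inferred from the detection p-values, was 89.2 ± 4.07 and 91.2 ± 4.42 on the mimic arrays and 94.2 ± 4.72 and 94.5 ± 4.77 on the NC oligo arrays (mean ± SD of the negative control signal). PIGV therefore stood 11.7 and 27.9 signal units above background with the mimic, or 2.88 and 6.30 background SDs, and 71.3 and 56.9 units above it with the NC oligo, or 15.1 and 11.9 SDs. The probe was detected on all 4 arrays, with its weakest detection on mimic array 1.

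**Figure D2:**
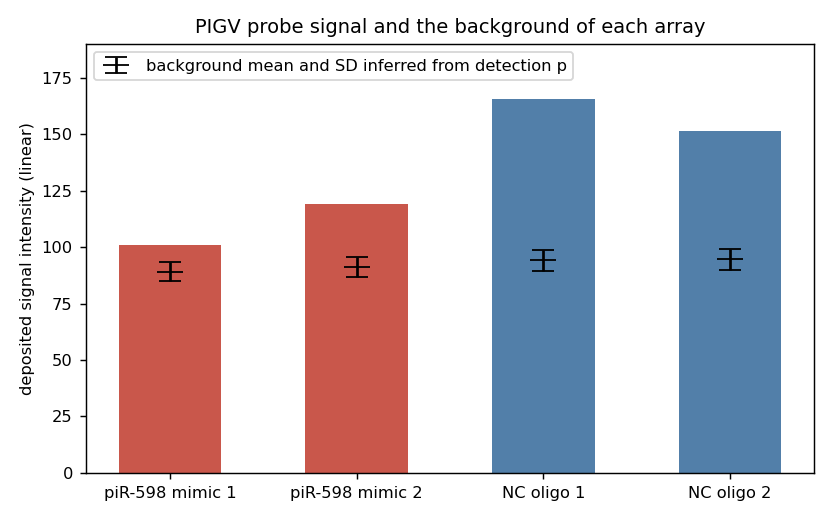
Deposited linear signal of the PIGV probe on each array (bars; red, piR-598 mimic; blue, NC oligo), with a black mark and error bar for the mean and SD of that array's background. The mimic bars reach 101 and 119, close above backgrounds of 89.2 and 91.2, and the NC oligo bars reach 166 and 151.

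After background correction and normalization PIGV had log2 signals of 4.85 and 5.45 on the mimic arrays, against 6.36 and 6.14 on the NC oligo arrays. The mimic arrays averaged 5.15 ± 0.42 and the NC oligo arrays 6.25 ± 0.16 (SD, n = 2 each). The log2 fold change was -1.10 ± 0.21 (SE), a level with the mimic of 0.467 times that with the NC oligo, or a ratio of 2.14 the other way. The smallest gap between a mimic and an NC oligo array was 0.69 and the gap between the mimic arrays was 0.60. This was the second lowest log2 fold change of all 20188 tested probes, after a probe with no single gene symbol at -1.16. The rank holds for the reported processing: counted from the lowest, PIGV was number 62 on the authors' scaled signals, 25 without background correction and 17 without mimic replicate 1. Since whole cultures were measured, fewer cells holding the transcript and less of it per cell cannot be told apart. The size depended on how background was handled: skipping the background correction gave -0.44 and raising the offset to 50 gave -0.66, which are ratios, NC oligo over mimic, of 1.36 and 1.57. The authors' scaled signals, which differ both in background correction and in normalization, gave -0.41, a ratio of 1.33. Leaving out 1 array at a time gave -1.40 without mimic replicate 2, -0.80 without mimic replicate 1, -1.21 when NC oligo replicate 2 was dropped and -0.99 when NC oligo replicate 1 was. PIGV was lower with the mimic in each of these settings. Both mimic arrays lay below both NC oligo arrays, so leaving out 1 array could not reverse the sign. PIGV was also chosen for this low signal on the same arrays, so its sign across settings is no support.

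**Figure D3:**
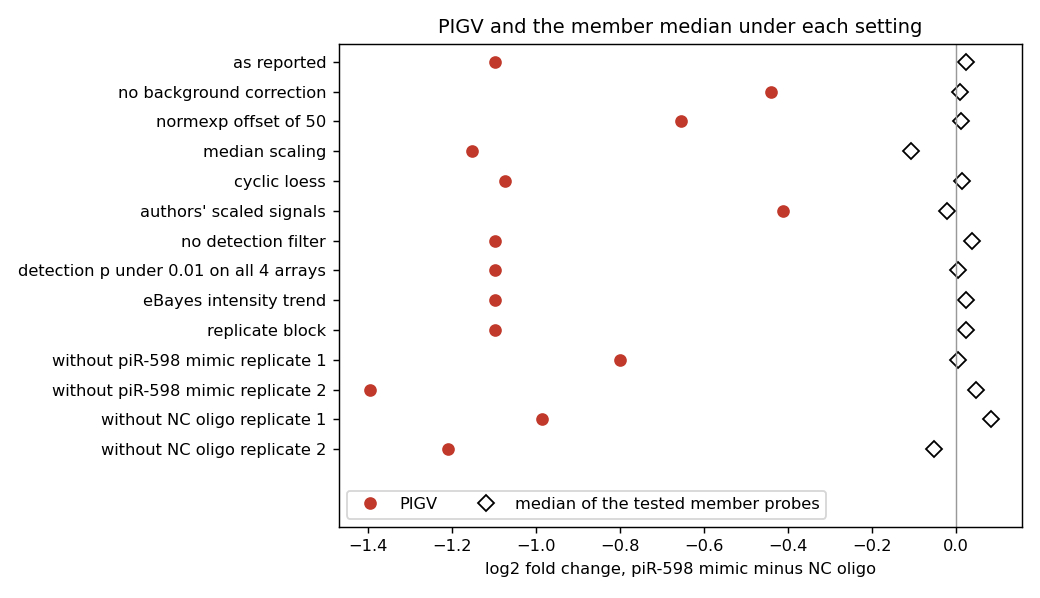
Log2 fold change of PIGV (red circles) and median of the tested member probes (open diamonds), piR-598 mimic minus NC oligo, under the reported processing and each of 13 alternatives. PIGV ranges from -1.40 to -0.41 and the member median from -0.11 to 0.08.

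PIGV lies at chr1:26787054-26800659 in GRCh38.p14, on the plus strand, by the RefSeq tables used here. No probe sequence was used, so the part of the transcript that the probe reads is not given. The RefSeq promoter table gives 4 start windows for PIGV, each running from 250 bases before to 50 after a start, and 2 that do not overlap are shown because they differ in base composition. The upstream window holds 3 CpG dinucleotides and the downstream window 33. Capitals mark the motif words searched for, here the GC box word GGGCGG, which begins 30 bases before the downstream start.
PIGV chr1:26787299-26787598: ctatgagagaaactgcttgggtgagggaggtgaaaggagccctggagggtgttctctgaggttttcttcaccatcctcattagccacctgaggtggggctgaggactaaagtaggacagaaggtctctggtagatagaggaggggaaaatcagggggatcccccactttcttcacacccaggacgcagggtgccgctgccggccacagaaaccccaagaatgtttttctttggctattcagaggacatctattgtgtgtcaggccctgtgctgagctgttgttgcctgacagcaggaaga
PIGV chr1:26787700-26787999: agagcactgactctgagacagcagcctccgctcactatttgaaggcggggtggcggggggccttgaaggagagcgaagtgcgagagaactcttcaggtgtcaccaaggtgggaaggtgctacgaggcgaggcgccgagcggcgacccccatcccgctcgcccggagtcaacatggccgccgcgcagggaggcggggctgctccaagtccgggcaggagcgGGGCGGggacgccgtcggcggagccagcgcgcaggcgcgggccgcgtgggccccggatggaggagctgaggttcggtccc

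The tested probes whose pattern over the 4 arrays lay nearest to that of PIGV were found by Euclidean distance between log2 values centred on each probe's mean. The search covered 15398 tested probes that have 1 gene symbol and belong to no member. The nearest were ACTR6, a nuclear actin-related protein (distance 0.41), FBXO22, a ubiquitin ligase subunit (0.46), ABI3BP, an extracellular matrix protein (0.48), TMEM106B, a lysosomal membrane protein (0.49), and TAB2, an adaptor of TAK1 kinase signalling (0.49). ACTR6 had log2 signals of 6.15 and 6.62 with the mimic, against 7.22 and 6.95 with the NC oligo. The log2 fold changes of the 5 ran from -0.71 for FBXO22 to -0.66 for TMEM106B. Their size also depended on how background was handled. Without background correction they ran from -0.46 for ABI3BP to -0.22 for TAB2. All of these profiles share the same 4 arrays, on which mimic array 1 was the lowest for each, and TAB2 was not detected on it. Among the members themselves the next lowest log2 fold change after PIGV was -0.37, for a PIGA probe.

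PIGA, the catalytic subunit of the enzyme that starts the pathway, had 3 probes, and those detected did not give the same picture. The brightest, ILMN_1705985, had log2 signals of 8.17 and 8.97 on the mimic arrays, against 8.99 and 8.89 on the NC oligo arrays. Only mimic array 1 was low, mimic array 2 fell between the NC oligo arrays, and the groups overlapped. The log2 fold change was -0.37 ± 0.24 (SE), and 0.03 without mimic replicate 1. The gap between the mimic arrays, 0.81, was exceeded by 1.12% of all tested probes. A second probe, ILMN_2367186, annotated to the same transcript, had log2 signals of 4.83 and 4.75 with the mimic and 4.84 and 4.66 with the NC oligo. Its deposited signals of 101 and 102 with the mimic and 108 and 104 with the NC oligo lay close to background, and its log2 fold change was 0.04 ± 0.15 (SE). The third, ILMN_1802390, was not detected on any of the 4 arrays (detection p from 0.20 to 0.60) and is given no fold change.

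The other mannosyltransferases of the set had mimic arrays inside the range of the NC oligo arrays. PIGM, which adds the first mannose, had log2 signals of 8.21 and 8.15 with the mimic, against 8.26 and 8.03 with the NC oligo. Both mimic arrays lay between the 2 NC oligo arrays, and the log2 fold change was 0.04 ± 0.15 (SE). PIGB, which adds the third mannose, had 7.61 and 7.64 with the mimic, against 7.46 and 7.70 with the NC oligo. Its mimic arrays also lay between, with a log2 fold change of 0.04 ± 0.15 (SE). The 95% intervals of these differences ran from -0.30 to 0.38 for PIGM and from -0.30 to 0.39 for PIGB. A 1.5-fold change lay outside both. The interval of PIGV ran from -1.57 to -0.63, but PIGV was chosen for its low signal with the mimic. Nothing is therefore read from that interval or from its contrast with the others. The difference between PIGV and the other mannosyltransferases was not tested.

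PIGO, which transfers ethanolamine phosphate to the third mannose, was read by 3 detected probes that pointed in different directions. Probe ILMN_1653613 had log2 signals of 7.17 and 7.35 with the mimic, against 6.86 and 7.14 with the NC oligo, a log2 fold change of 0.26 ± 0.16 (SE). Both mimic arrays were higher, by a smallest gap of 0.03. Probe ILMN_1673395, annotated to another transcript of the gene, had 5.51 and 5.50 with the mimic, against 5.76 and 5.80 with the NC oligo, a log2 fold change of -0.28 ± 0.14 (SE). Here both mimic arrays were lower, by a smallest gap of 0.25. Probe ILMN_2379931, annotated to the same transcript as the first, had 8.11 and 7.85 with the mimic, against 8.09 and 7.88 with the NC oligo, and a log2 fold change of -0.01 ± 0.16 (SE). No direction can be given for PIGO as a gene from these probes.

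PIGF, a small membrane protein that PIGO needs for its activity, had 2 detected probes. The brighter, ILMN_1808938, had log2 signals of 8.67 and 8.35 with the mimic, against 8.15 and 8.31 with the NC oligo. The mimic arrays lay above by a smallest gap of 0.05, and the log2 fold change was 0.28 ± 0.16 (SE). The dimmer, ILMN_1658773, had 6.03 and 4.65 with the mimic, against 4.76 and 4.92 with the NC oligo. Mimic array 1 was the highest of the 4 and mimic array 2 the lowest. The gap between them, 1.38, was exceeded by 0.025% of all tested probes. The log2 fold change of this probe was 0.50 ± 0.36 (SE), -0.19 without mimic replicate 1 and 1.19 without mimic replicate 2, so 1 array sets both its size and its sign.

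The 4 transamidase subunits of the set, which cut the protein's tail signal and join the anchor to it, had log2 fold changes from -0.16 to 0.27. PIGK, the catalytic subunit and a cysteine protease, had log2 signals of 7.87 and 8.03 with the mimic, against 8.03 and 8.18 with the NC oligo. The mimic arrays were lower by a smallest gap of only 0.0023, and the log2 fold change was -0.16 ± 0.15 (SE). PIGT, which holds the complex together, had 10.00 and 9.96 with the mimic, against 9.96 and 10.00 with the NC oligo, with a log2 fold change of 2e-04 ± 0.14 (SE). PIGS had 7.97 and 7.99 with the mimic, against 8.03 and 7.91 with the NC oligo, with a log2 fold change of 0.01 ± 0.14 (SE). For both PIGT and PIGS the groups overlapped.

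GPAA1, another subunit of the transamidase, had log2 signals of 9.13 and 9.01 with the mimic, against 8.79 and 8.82 with the NC oligo. Both mimic arrays were higher, by a smallest gap of 0.19, and the log2 fold change was 0.27 ± 0.14 (SE), or 1.20-fold. It was 0.21 to 0.33 when 1 array was left out. The 95% interval ran from -0.06 to 0.59 and so reached 0, and GPAA1 did not pass the test over all probes.

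**Figure D4:**
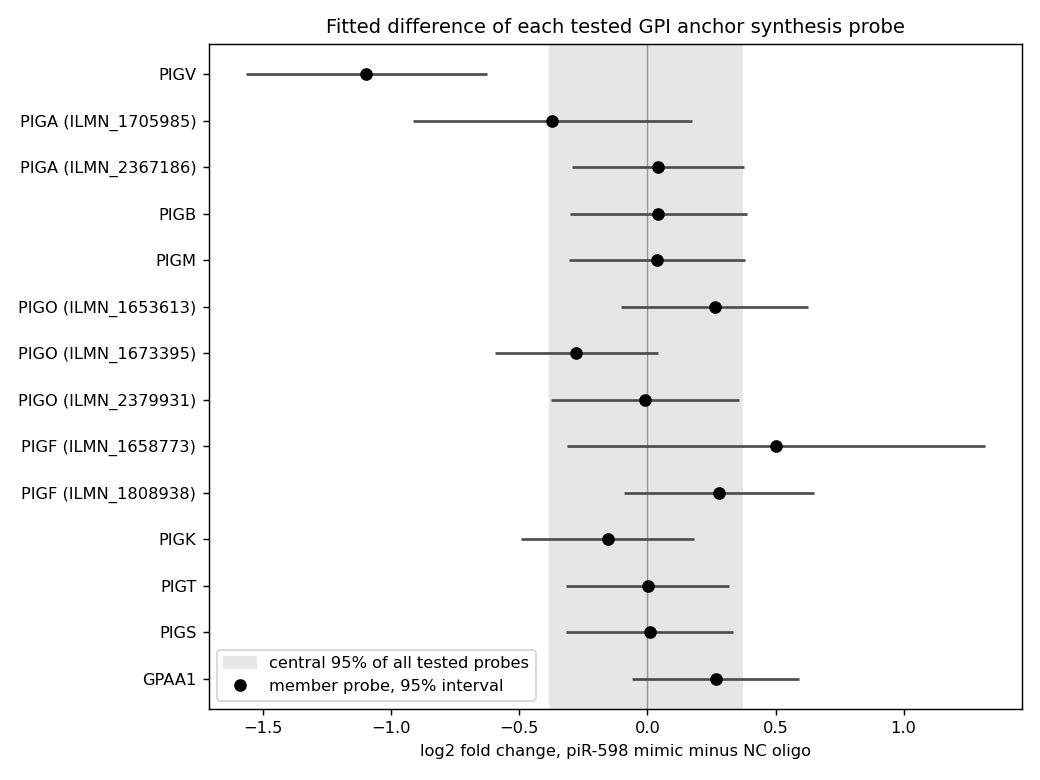
Log2 fold change of each of the 14 tested member probes, piR-598 mimic minus NC oligo (points), with its 95% interval from limma (lines); the grey band holds the central 95% of all tested probes, -0.38 to 0.37. PIGV at -1.10 lies outside the band, as does the dimmer PIGF probe at 0.50, whose interval runs from -0.32 to 1.32.

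Intervals of the fitted log2 fold change lay within a 1.5-fold change either way for 7 of the 14 member probes and within 2-fold for 12. The same shares over all tested probes were 15068 and 20070 of 20188. The median difference between the mimic arrays was 0.14 for the member probes and 0.18 for all tested probes. Between the NC oligo arrays it was 0.16 for the member probes and 0.14 for all tested probes. The gap between the mimic arrays was widest for the dimmer PIGF probe, the brightest PIGA probe and PIGV, whose gap was exceeded by 4.76% of all tested probes.

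Promoter windows of 8 of the 10 genes were matched by symbol in the RefSeq table of GRCh38.p14, 12 windows in all, some of them overlapping starts of 1 gene. Their median GC content was 61.7%, against 58.7% over all 35116 windows, and their median CpG count was 25, against 14. The word TATAAA was in 0 of the 12 windows, against 11.5% of all windows. The word CCAAT was in 5 of 12, against 34.6%, and GGGCGG, the core of a GC box, was also in 5 of 12, against 45%. The ETS word CCGGAAG was in 4 of 12, against 10.3%, in windows of PIGV, PIGB, PIGO and PIGS. The word AAGATGG, part of the YY1 site, was in 0 of 12, against 5.84%. All words were searched on both strands and no 2 of them contain each other. These matches describe letters in the windows and say nothing of which factor binds. A window of PIGA, whose brightest probe had mimic arrays 0.81 apart, and that of PIGT, whose group means were the closest of the set, are given with the words in capitals. The capitals in both are CCAAT read on the opposite strand. The other PIGA window overlaps the one given and also holds GGGCGG on the opposite strand. Whether any word bears on the signals was not tested.
PIGA chrX:15335505-15335804, minus strand: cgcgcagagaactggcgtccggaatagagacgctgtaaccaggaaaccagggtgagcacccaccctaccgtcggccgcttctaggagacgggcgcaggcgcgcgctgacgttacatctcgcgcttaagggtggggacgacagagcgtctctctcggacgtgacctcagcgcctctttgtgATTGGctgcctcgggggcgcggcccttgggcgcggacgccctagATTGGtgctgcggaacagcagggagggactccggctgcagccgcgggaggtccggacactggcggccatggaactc
PIGT chr20:45415891-45416190, plus strand: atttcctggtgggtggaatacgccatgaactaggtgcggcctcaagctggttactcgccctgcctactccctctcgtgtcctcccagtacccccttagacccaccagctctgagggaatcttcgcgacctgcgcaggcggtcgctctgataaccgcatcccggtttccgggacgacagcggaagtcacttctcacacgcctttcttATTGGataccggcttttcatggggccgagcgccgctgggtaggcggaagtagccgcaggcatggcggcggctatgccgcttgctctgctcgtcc

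Further genes of the pathway and of steps next to it were read from lists of 37 other genes, each by its tested probe of highest mean signal. The lists also hold genes that use dolichol phosphate mannose for other glycans or carry other proteins out of the endoplasmic reticulum. Summaries over the 37 genes are therefore not of the GPI pathway alone. Of these, 34 were tested and 0 were called by limma in either direction, with 2 at an unadjusted p under 0.05, TMED5 and PGAP1, both lower, against 5.46% of all tested probes in either direction and 2.84% lower. The 2 of 34 is a share near that of all probes. Their median log2 fold change was -0.07, against 7e-04 over all tested probes, with 12 positive and 22 negative values where 49.8% of all tested probes were negative. Untested for low signal were PIGZ, GPLD1 and GDPD5. Among the 9 genes of N-acetylglucosamine transfer and the early steps the median was -0.07. ARV1, a lipid transport protein of the endoplasmic reticulum, had a value of -0.23 ± 0.14 (SE of the log2 fold change), the inositol acyltransferase PIGW had -0.18 ± 0.14 and PIGP, a partner of PIGA, had -0.17 ± 0.16. Of the 4 genes measured in the mannose and ethanolamine phosphate steps, PIGN had -0.20 ± 0.14, the lipid scramblase CLPTM1L 0.12 ± 0.15 and PIGG -0.14 ± 0.20. PIGU, the fifth transamidase subunit, had -0.08 ± 0.15. Without mimic replicate 2, PIGG was at 0.12 and PIGU at 0.0038.

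The lists after attachment and for mannose supply also had members on both sides of 0. In the 6 measured remodelling and release genes, PGAP1, which removes the inositol acyl chain, had a log2 fold change of -0.36 ± 0.15 (SE). Its deposited signals were 102.9 and 109.5 with the mimic and 119.2 and 124.5 with the NC oligo, against array backgrounds of 89.2 to 94.5. The PGAP1 value was -0.12 without background correction and -0.08 on the authors' scaled signals. MPPE1, which removes an ethanolamine phosphate from the anchor, had -0.29 ± 0.16, and PGAP6, a phospholipase, had 0.22 ± 0.16. Dolichol phosphate mannose is the donor that PIGM, PIGV and PIGB draw on. Of the 8 genes of its supply and use, MPDU1, needed for its use in the membrane, had 0.34 ± 0.17, and the N-glycan mannosyltransferases ALG12 and ALG9 had 0.18 ± 0.15 and -0.11 ± 0.14. Of the 6 cargo and coat genes that carry GPI proteins out of the endoplasmic reticulum, TMED5, a p24 cargo receptor, had log2 signals of 7.72 and 8.13 with the mimic, against 8.52 and 8.51 with the NC oligo. Its log2 fold change of -0.59 ± 0.17 (SE) was the furthest from 0 of the 34, and it was -0.39 without mimic replicate 1. TMED9, another p24 protein, had 0.32 ± 0.14 and TMED2 -0.13 ± 0.15.

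**Figure D5:**
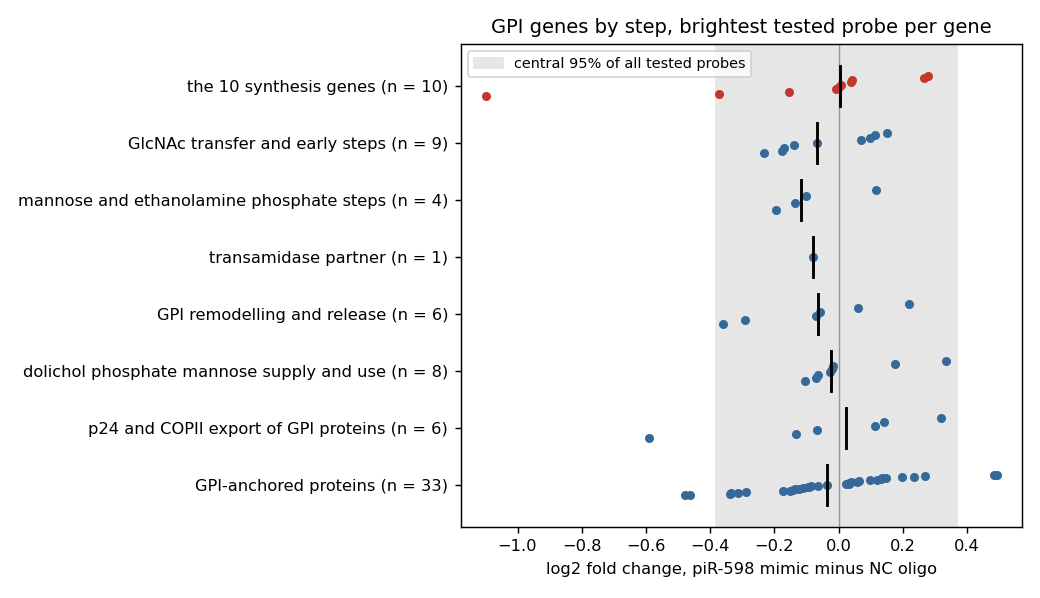
Log2 fold change, piR-598 mimic minus NC oligo, of each measured gene of the 10 synthesis genes (red) and of the other GPI lists (blue), 1 tested probe per gene; black bars are list medians and the grey band holds the central 95% of all tested probes. PIGV at -1.10 and TMED5 at -0.59 lie furthest below the band.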

How the data were processed

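Signal intensity per probe and array was deposited by the authors as a linear average signal, with a detection p-value deposited beside each, per the file headers. GenomeStudio 2011.1 is named in the submitters' processing notes. A second deposited table holds the same intensities, each array times a constant, and served as an alternative. Here the unscaled signals were corrected by normexp, with the background inferred from the detection p, given an offset of 16, quantile normalized and taken to log2 (neqc, limma 3.58.1, R 4.3.3). The 20188 probes detected (p under 0.05) on 2 or more arrays were all fitted with lmFit and eBayes, piR-598 mimic minus NC oligo, two-sided, with Benjamini-Hochberg adjustment. Subtracting background makes fold changes of dim probes larger and less sure. The steps were tested on simulated data.

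Samples were grouped by title. Symbols came from the platform annotation. The members and the other gene lists were chosen with earlier results of these arrays known. Named genes are all members, the 3 of smallest unadjusted p in each other list, and the 5 nearest to PIGV. Alternatives changed the background, scaling, filter and variance model, added the replicate block or left out each array. Slide was not used here, and precision is limited by the number of arrays.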

Additional observations from a re-analysis of the deposited data

How the results depend on the processing

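With all 4 arrays, every setting called 0 probes at an adjusted p under 0.05, and 0 of the members and of the other GPI genes. The smallest adjusted p from limma ran from 0.664 under median scaling to 0.917 without the detection filter. Leaving out 1 array gave 0 to 3 calls over all probes (3 without NC oligo replicate 2 and 1 after dropping piR-598 mimic replicate 2), none of them in a GPI list. Of the 14 member probes, 6 kept their sign under all settings run and 8 changed it without some array. Those that changed were both tested PIGA probes, the dimmer PIGF probe, 1 PIGO probe, PIGB, PIGM, PIGT and PIGS. The 6 are the probes whose groups did not overlap, and leaving out 1 array cannot reverse the sign of such a probe. This count is therefore no separate result. Changing the filter or variance model, or adding the block, leaves each log2 fold change as it was. Median scaling moved the median of all tested probes by -0.09, and signs under it were read relative to that. With the replicate number as a block, 0 probes were called (smallest adjusted p = 0.682 from limma). In this balanced design the block cannot change a log2 fold change, so the -1.10 of PIGV was fixed in advance. Deviations of same-numbered arrays correlated at 0.15 over probes, but the labels name no shared day or culture. For PIGV, signal over background on mimic array 1 limits the size of the fold change.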

Other observations

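Proteins that carry a GPI anchor were read from a list of 60 genes, of which 33 were tested. None was called by limma (0 of 33), as were 0% of all tested probes. An unadjusted p under 0.05 from limma was reached by 5 of 33, against 5.46% of all tested probes. The median log2 fold change was -0.04, against 7e-04 over all tested probes. Nothing is read from these summaries. EFNA5, 1 of the 5, passed the detection filter through the mimic arrays alone, and BST2, not among the 5, through the NC oligo arrays alone. The other 4 of the 5 were detected on all 4 arrays, 1 of them with a positive and 3 with a negative value. The complement regulator CD59 had log2 signals of 8.88 and 8.92 with the mimic, against 8.92 and 9.07 with the NC oligo, and the ectonucleotidase NT5E had 10.33 and 10.45 with the mimic, against 10.54 and 10.51 with the NC oligo; these 2 were chosen after their values were seen. GPC2, a heparan sulfate proteoglycan of the glypican family, had a log2 fold change of -0.48 ± 0.14 (SE), and GPC5 of the same family had 0.49 ± 0.16. Both were read by dim probes, with deposited signals from 103.6 to 138.3. Without background correction GPC2 was at -0.18 and GPC5 at 0.14. The ephrin EFNA5 was detected on both mimic arrays and on 0 of 2 NC oligo arrays. Its deposited signals, 97.9 and 103.5 with the mimic and 91.4 and 95.5 with the NC oligo, lay near background. It was tested only because of its detection with the mimic, so no fold change is read from it. None of the 3 passed the test (limma adjusted p = 0.895).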
